A study of Danio rerio with 4 samples.

Results

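The outer 2 Mb of the zebrafish chromosomes were examined for 5-hydroxymethylcytosine, abbreviated 5hmC, an oxidised form of 5-methylcytosine produced by the TET enzymes. Genomic DNA came from hearts dissected from wild-type Danio rerio embryos at 48 hours post fertilisation, and each biological group pooled at least 40 hearts. The labels give AB as the strain background, while their growth protocol describes AB by TU crosses. No group carried a mutation or a treatment, and a dissected heart holds muscle, endocardial and other cells together, so 1 peak list mixes their 5hmC. The series had 4 samples, 2 captures of 5hmC and 2 inputs. Only the peak lists of the captures, called replicate 1 and replicate 2 after their titles, were used. Whether the pooled hearts were of different clutches is not in the labels, so any spread between replicates 1 and 2 may be technical.

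A peak was counted as subtelomeric when its midpoint lay within 2 Mb of position 0 or of the last peak end of its chromosome, on every chromosome except chromosome 4. These were 11912 of 145501 peaks in replicate 1 and 11650 of 145893 peaks in replicate 2, totals that include chromosome 4. They lay at 48 ends of 24 chromosomes, which make up 96 Mb, or 7.41% of the 1294.7 Mb spanned by those chromosomes. On the same 24 chromosomes, everything farther from an end is called the inner part and held 129075 and 129659 peaks. The left end is the one at position 0. The right end is the last position with a peak in either list and can therefore lie short of the end of the assembled chromosome. In replicate 1 the first peak of a left end began at a median of 2350 bp, and in replicate 2 at 3287 bp, with no first peak beyond 21405 bp.

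Subtelomeres are the stretches next to the telomere repeats. They are often rich in repeats and in recently duplicated sequence, and in zebrafish crossovers are concentrated towards the chromosome ends. In vertebrate tissues 5hmC is typically found along the bodies of active genes and at enhancers. The method used here tags 5hmC with an azide-bearing glucose, adds biotin and captures the tagged fragments, so a peak is a stretch where captured fragments piled up. Its width is the length of that stretch in bp. Its score is the value the authors' peak caller gave it, on a scale that is not stated in the sources used here. Coordinates are on danRer7, counted from 1, and no peak was assigned to a gene.

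Peaks at the chromosome ends were wider than those of the inner part. The median width was 1272.5 bp at the ends (quartiles 952 and 1792 bp) and 1161 bp in the inner part (892 and 1594 bp) in replicate 1. In replicate 2 it was 1379.5 bp at the ends (quartiles 1021 and 2013 bp) and 1225 bp in the inner part (937 and 1695 bp). The difference was present on each chromosome: with both ends of a chromosome pooled, the median width was higher at the ends than in the inner part on 24 of 24 chromosomes in both captures. The median over chromosomes of the width ratio, ends over inner, was 1.12 for the mean of the captures (quartiles 1.07 and 1.17), with 1.096 for replicate 1 and 1.137 for replicate 2. Per chromosome it ranged between 1.02 on chromosome 7 and 1.19 on chromosome 9. An exact two-sided sign test over the 24 chromosomes gave p = 1.19e-07, and p = 5.96e-07 after Benjamini-Hochberg adjustment over the 5 measures tested. The units of this test are chromosomes within 2 libraries, not animals, and chromosomes share the library they were read in.

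With all ends pooled, width was graded with distance, and most of the gradient lay in the outer 750 kb. In replicate 1 the median width was 1536.5 bp in the outermost 250 kb, 1423 bp in the next 250 kb and 1316 bp between 500 and 750 kb. In replicate 2 the same steps had medians of 1806.5, 1617 and 1376 bp. The step from 750 to 1000 kb had 1200.5 bp in replicate 1 and 1304 bp in replicate 2. From 750 kb to 2 Mb replicate 1 had a median of 1194 bp and replicate 2 one of 1275 bp, close to the inner medians of 1161 and 1225 bp. Just inside the 2 Mb limit, in the step from 1750 to 2000 kb, the medians were 1212 and 1260 bp. Just outside it, in the step from 2000 to 2250 kb, they were 1137 and 1211.5 bp. The captures thus shared the shape of the gradient, and replicate 2 had the higher outermost value, 1.48 times the inner median of the same chromosome at the median end, against 1.29 times in replicate 1.

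**Figure D1:**
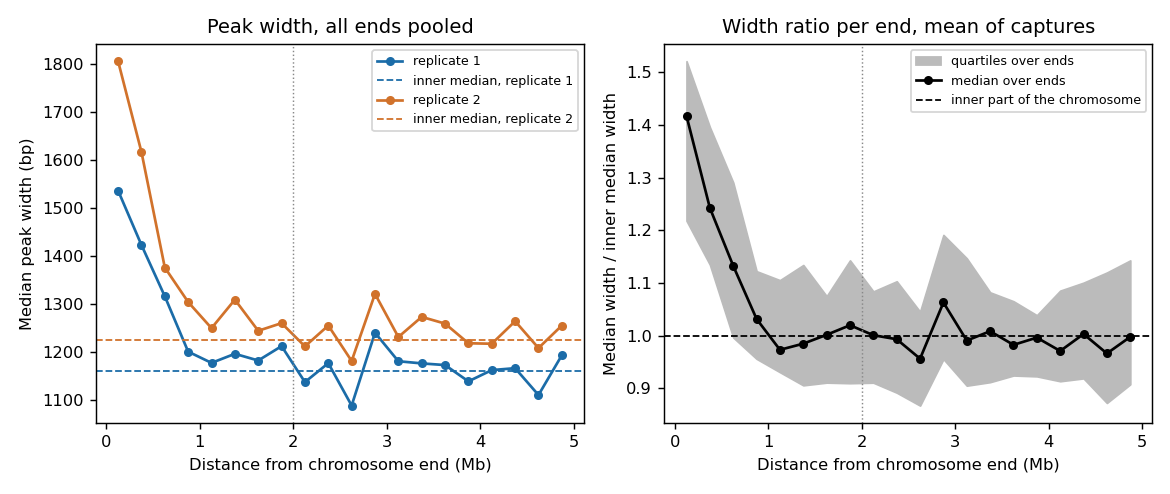
Left, median peak width in bp by distance from the chromosome end in 250 kb steps out to 5 Mb, all 48 ends pooled, for each capture, with dashed lines at the inner medians. Right, the median and quartiles over ends of the width over the inner median of the same chromosome. The pooled medians are 1536.5 and 1806.5 bp in the outermost step and approach the inner medians of 1161 and 1225 bp beyond 750 kb, and the dotted line marks 2 Mb.

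Most single ends were also wider than the inner part of their chromosome, which does not show the gradient at each of them. Over the whole 2 Mb, 45 of 48 ends (93.8%) had a median width above that of the inner part of their chromosome in both captures. Among 588 tiles of 2 Mb cut from the inner parts, 37.8% did so. A width ratio above 1.1 in both captures was found at 19 ends (39.6%), and in 5.44% of the inner tiles. The 3 ends that were not above their inner part in both captures were all left ends. On chromosome 19 the median width was 1177.5 bp at the left end and 1146 bp in the inner part in replicate 1, and 1172 bp at the left end and 1218 bp in the inner part in replicate 2. On chromosome 7 it was 1299 bp at the left end against 1227 bp in the inner part in replicate 1, and 1271 bp against 1293 bp in replicate 2. On chromosome 3 it was 1093 bp at the left end against 1181 bp in the inner part in replicate 1, and 1251.5 bp against 1231 bp in replicate 2.

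The ends with the highest width ratio over 2 Mb were picked by that ratio and are given as a description. The left end of chromosome 15 had a median width of 1537 bp in replicate 1 and 1667 bp in replicate 2, where the inner part of that chromosome had 1172.5 and 1230 bp. On chromosome 9 the left end had 1514 and 1565 bp, where the inner part had 1157 and 1214 bp. In its outermost 250 kb the left end of chromosome 9 had lower medians, 1215.5 and 1460 bp. That of chromosome 15 had higher ones there, 1723 and 2290 bp. The left end of chromosome 15 was not dense, with 175 and 189 peaks, and the left end of chromosome 9 had 262 and 261. Over the 48 ends, the density ratio and the width ratio were only weakly related (Spearman's rho 0.12). This value describes ends that share their libraries and carries no p.

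In the outermost 250 kb the contrast with the inner part was larger. The right ends of chromosomes 2 and 20 had fewer than 5 peaks there in a capture and were left out. Of the other 46, 43 had a median width above the inner median in both captures, 27 exceeded the inner median by over 25% in both (58.7%), 30 exceeded 1.2 times the inner median in both (65.2%), and 1 was below the inner median in both captures. Of 4548 inner tiles of 250 kb with at least 5 peaks in each capture, 2.66% exceeded the inner median by over 25% in both and 5.04% exceeded 1.2 times it. In replicate 1 the median width of these 46 ends ranged between 881 and 2056.5 bp with a median of 1513.5 bp, and in replicate 2 between 1013 and 2818 bp with a median of 1774.75 bp. The lowest of these values in both captures belonged to the left end of chromosome 3. The 2 highest in replicate 2 belonged to the right end of chromosome 17 (2818 bp, 25 peaks) and the left end of chromosome 20 (2483 bp, 35 peaks), where replicate 1 had 1734.5 and 1956 bp. The highest in replicate 1 was the right end of chromosome 18 (2056.5 bp, 48 peaks), where replicate 2 had 2442.5 bp. At 500 to 750 kb 31 of 48 ends were above their inner median in both captures. At 750 to 1000 kb 23 of 46 were above it, 11 were below it, and 15.2% exceeded 1.2 times it in both. At 1000 to 1250 kb 15 of 46 were above it. In the steps between 2 and 5 Mb, which belong to the inner part, the lowest share was 11 of 45 (2500 to 2750 kb). The highest there was 23 of 43 (2750 to 3000 kb).

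Wider peaks tended to score higher within the subtelomeric sets (Spearman's rho across peaks 0.48 in replicate 1 and 0.47 in replicate 2), so widths were also compared among peaks of like score. Within each quartile of score of the list, peaks at the ends were wider. In replicate 1 the lowest score quartile had a median width of 1015 bp at the ends and 954 bp in the inner part, and the highest had 1843 bp at the ends and 1628 bp in the inner part. In replicate 2 the lowest quartile had 1103 bp at the ends and 1004 bp in the inner part, and the highest had 2066.5 bp at the ends and 1740 bp in the inner part. In the outer 750 kb the highest quartile reached 2077 and 2440 bp. With the 4 quartiles weighted equally the width ratio was 1.11, higher on 24 of 24 chromosomes. Shared peaks alone gave a ratio of 1.14 and unshared peaks alone 1.09, each higher on 24 of 24 chromosomes. Merging peaks of a list no more than 500 bp apart gave 1.138.

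Very broad peaks were more frequent near the ends. In the outer 750 kb, 9.72% of replicate 1 peaks and 14.1% of replicate 2 peaks exceeded 3000 bp, against 2.95% and 4.03% in the inner part. Consensus regions, built by joining peaks that overlapped across the lists and dropping any found in 1 list only, numbered 8919 at the ends and 97925 in the inner part. Their median width was 1618 bp at the ends and 1425 bp in the inner part. A consensus region can hold several peaks of a list. Neighbouring peaks lay a median of 2590.5 bp apart at the ends and 3193 bp in the inner part in replicate 1. In replicate 2 they lay 2506.5 bp apart at the ends and 3125 bp in the inner part. How far joining added to the width of consensus regions at the ends was not tested. Of the consensus regions at the ends, 267 (2.99%) were wider than 5 kb, against 1047 (1.07%) in the inner part. These wide regions had a density of 2.78 per Mb at the ends and 0.873 per Mb in the inner part. Most of them, 208 of 267 (77.9%), lay in the outer 750 kb, at 5.78 per Mb, and the stretch from 750 kb to 2 Mb had 0.983 per Mb. They occurred at 47 of 48 ends, with a median of 5 and at most 13 per end. The like count for inner tiles of 2 Mb is not given here, so the 47 has no background beside it. The right end of chromosome 17 and the left end of chromosome 14 had 13 each, and the left ends of chromosomes 10 and 15 had 11 each.

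The widest consensus region at an end was on chromosome 8, 55684980 to 55704749 (19770 bp), 477.5 kb from the right end, and its replicate 1 and replicate 2 scores were 733 and 716.3. On chromosome 19, the region at 49794973 to 49808760 (13788 bp) lay 452 kb from the right end and scored 240.1 in replicate 1 and 811.3 in replicate 2. Chromosome 1 had one of 12877 bp at 1479167 to 1492043, which scored 406.5 and 576.8. Chromosome 11 had one of 12570 bp at 766009 to 778578, with 913.2 and 785.4. The fifth, chromosome 7, 77020236 to 77032385 (12150 bp), scored 232.8 and 235. All 5 regions were divided into more than 1 peak in at least 1 capture, where the score given is 1 value for several peaks. The scores of the 5 ranged widely.

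Peak density was higher at some ends and lower at others. Pooled over all ends, there were 124.1 peaks per Mb at the ends and 107.7 per Mb in the inner part in replicate 1, and 121.4 per Mb at the ends and 108.2 per Mb in the inner part in replicate 2. Per chromosome, the density ratio had a median of 1.11 in the mean of the captures (quartiles 0.974 and 1.31) and was above 1 on 17 of 24 chromosomes. The exact two-sided sign test gave p = 0.0639, adjusted p = 0.107, so the density over the whole 2 Mb did not pass the threshold of 0.05. The median ratio was nearly equal in the captures, 1.1145 in replicate 1 and 1.1125 in replicate 2, though the call differed. Replicate 1 alone was higher on 18 of 24 chromosomes (exact sign test, adjusted p = 0.0378), and replicate 2 alone on 16 of 24 (exact sign test, adjusted p = 0.189). The lowest ratio was 0.709 on chromosome 3 and the highest 1.63 on chromosome 10.

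Density also had a gradient with distance, and its quartiles over ends were farther apart than those of width. In the outermost 250 kb replicate 1 had 145.3 peaks per Mb and replicate 2 had 139.3, and the median end had 1.41 times the inner density (quartiles 0.940 and 1.76). In that step 32 of 48 ends were above and 12 below their inner density in both captures. In the steps from 2000 to 5000 kb, which belong to the inner part, 14 to 23 of 48 were above and 21 to 30 below. The like share of all inner tiles of 250 kb is not given here. Between 500 and 750 kb there were 133.9 and 133.3 peaks per Mb, and between 1500 and 1750 kb 101.9 and 100.3. The steps just inside and just outside the 2 Mb limit had 119 and 117.9 peaks per Mb, and 116.1 and 115.3 peaks per Mb. Left ends were denser than right ends, with 130.7 and 128.9 peaks per Mb at left ends and 117.4 and 113.8 at right ends. Within a chromosome, the left end had the higher ratio on 15 of 24 chromosomes, a difference that was not tested. The density call depended on the length of the end. With ends of 1 Mb the ratio was 1.26 and passed the exact sign test (18 of 24 chromosomes, adjusted p = 0.0283), and with ends of 3 Mb it was 1.04 and did not (14 of 24, exact test, adjusted p = 0.677). Without the outermost 250 kb it was 1.13, higher on 13 of 24 chromosomes (exact test, adjusted p = 1).

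**Figure D2:**
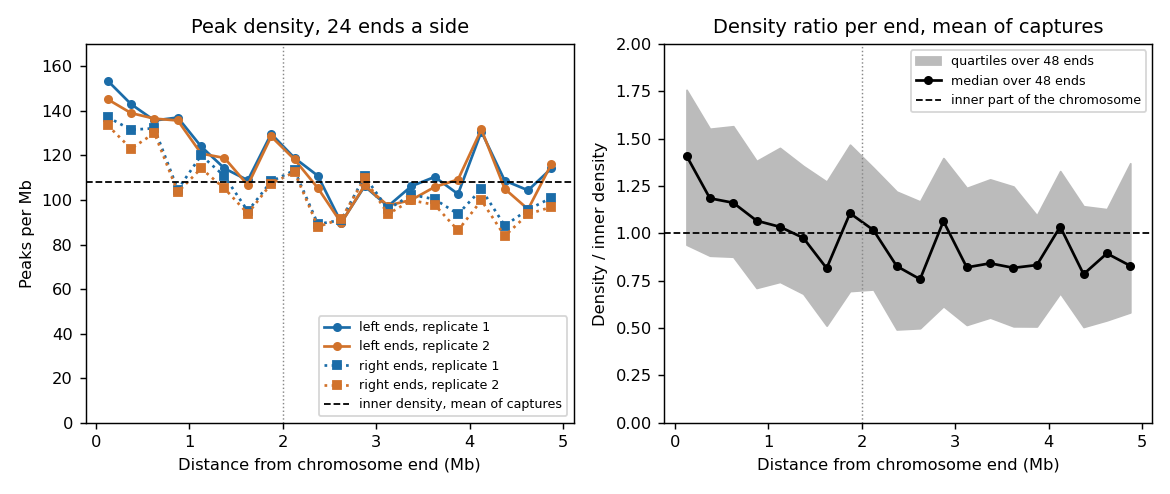
Left, peaks per Mb by distance from the end in 250 kb steps for left and right ends in each capture, 24 ends a side, with the inner density dashed. Right, the median and quartiles over 48 ends of the density over that of the inner part of the same chromosome. In the outermost step the pooled densities are 145.3 and 139.3 per Mb and the median ratio is 1.41, and the lower quartile stays below 1 in every step.

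The ends differed from each other far more than the captures did. The density ratio at 1 end was between 0.34 and 1.89 in the mean of the captures, while the captures differed by a median of 0.053 and by at most 0.153 in that ratio at any 1 end. Over the 48 ends, Spearman's rho between the captures was 0.98. In both captures, 29 ends (60.4%) were denser than the inner part and 15 were less dense, and among inner tiles 44.4% were denser than the rest of their inner part. A density above 1.5 times the inner one in both captures was found at 8 ends (16.7%), 7 of them left ends, and in 7.82% of inner tiles. A density below the inner one by the same factor was found at 4 ends (8.33%), and in 15.6% of inner tiles. Ends and inner tiles overlapped over most of their range: 8 inner tiles were denser than the densest end, and 11 were sparser than the sparsest.

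**Figure D3:**
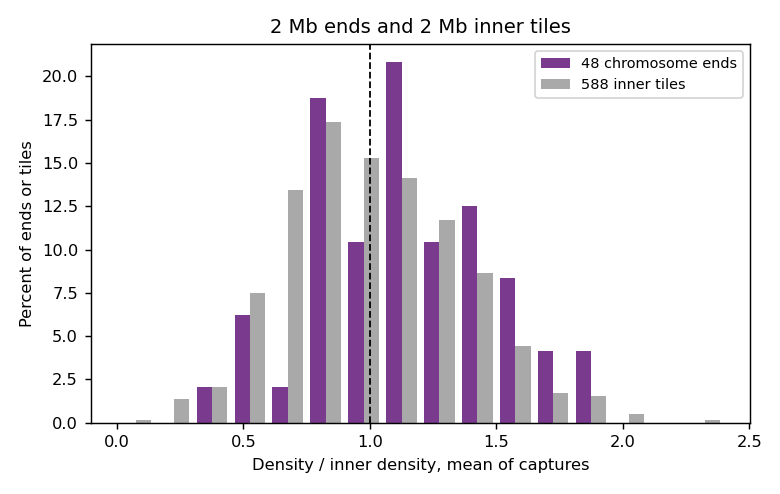
Percent of 48 chromosome ends (purple) and of 588 inner tiles of 2 Mb (grey) by their density ratio, mean of the captures. An end is set against the inner density of its chromosome, and a tile against the rest of that inner part. The medians are 1.097 for ends and 0.972 for tiles, and the distributions overlap.

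The densest ends were at the left of chromosomes 10, 24, 6, 14 and 25. The left end of chromosome 10 had 412 peaks in replicate 1 and 384 in replicate 2, or 206 and 192 per Mb, against 106 and 105 per Mb in the inner part. Peaks covered 32.5% and 34.3% of it. On chromosome 24 the left end had 404 and 395 peaks, or 202 and 197.5 per Mb, against 110.4 and 108.4 per Mb in the inner part. It also had the highest median score of any end in both captures, 140.2 and 142.96. The left ends of chromosomes 6, 14 and 25 had mean ratios of 1.73, 1.70 and 1.64, with 313 to 360 peaks. None of these chromosomes, and none of the others, exceeded 1.5 times its inner density at both ends: the right end of chromosome 10 had a ratio of 1.38, and that of chromosome 14 had 0.96. Both ends were denser than the inner part on 9 chromosomes, both were sparser on 2, and 1 of each was found on 13. Over the 24 chromosomes, Spearman's rho between the ratios of the left and right ends was 0.057.

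The sparsest ends were the left end of chromosome 3, the right end of chromosome 20, the left end of chromosome 7, and the right ends of chromosomes 1 and 9. On chromosome 3 the left end had 60 peaks in replicate 1 and 72 in replicate 2, or 30 and 36 per Mb, against 97.2 and 99.6 per Mb in the inner part. Peaks covered 3.88% and 5.03% of it, against 13.2% and 14.5% of the inner part. It also had the lowest median score (80.8 and 75.6) and the lowest shared percentage (66.7% and 56.9%) of the 48 ends. The right end of chromosome 20 had 121 and 120 peaks, with a mean ratio of 0.53. Its last peak came from replicate 1 alone, 173730 bp beyond the last peak of replicate 2, which is the largest such distance on the 24 chromosomes. The left end of chromosome 7 had 118 and 131 peaks, the right end of chromosome 1 had 107 and 104, and the right end of chromosome 9 had 186 and 172. Denser ends also had higher median scores relative to the inner part (Spearman's rho over the 48 ends 0.76) and higher shared percentages (0.74), as a description of ends in the same 2 libraries.

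**Figure D4:**
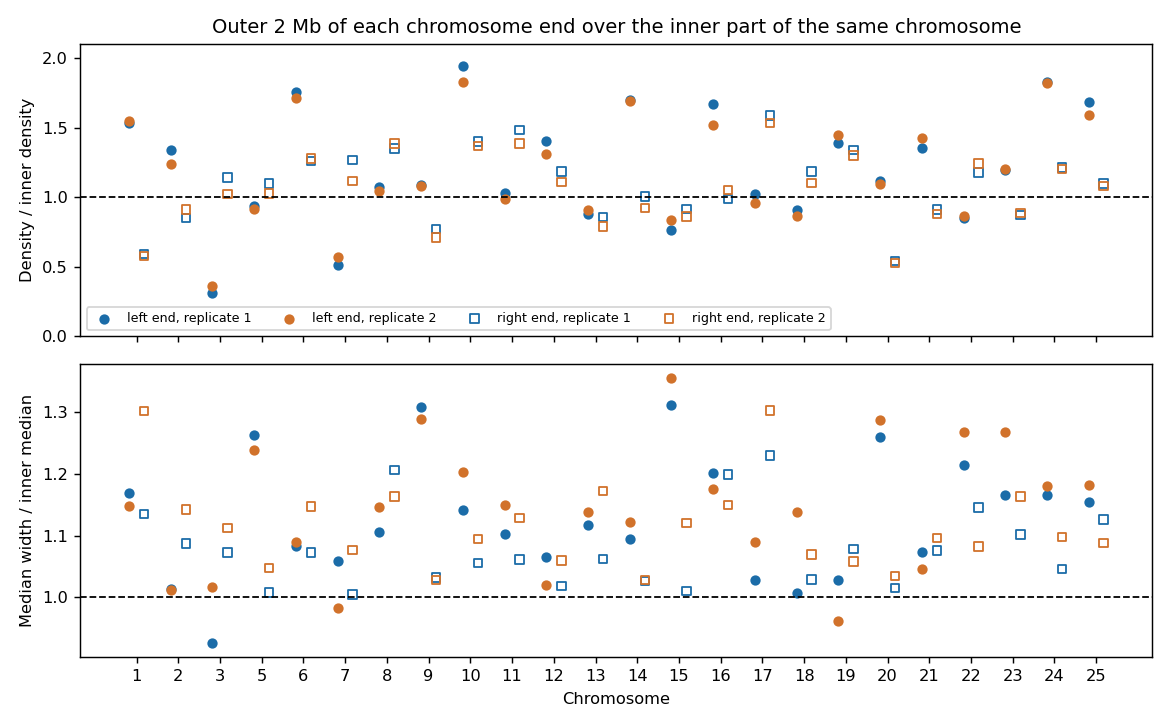
Density (top) and median peak width (bottom) of the outer 2 Mb of each chromosome end over the inner part of the same chromosome, with left ends filled and right ends open, for each capture. Density ratios lie on both sides of 1, with the left end of chromosome 3 lowest and that of chromosome 10 highest, while 45 of 48 ends have a width ratio above 1 in both captures.

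The share of DNA covered by peaks combines number and width. Peaks covered 18.7% of the ends and 14.5% of the inner part in replicate 1, and 20.4% of the ends and 15.5% of the inner part in replicate 2. The ratio of covered bases was above 1 on 20 of 24 chromosomes in the mean of the captures, with a median of 1.29 (quartiles 1.12 and 1.55; exact sign test, adjusted p = 0.00386). In the outermost 250 kb 26.5% and 30.4% were covered, and between 750 kb and 1 Mb 16.9% and 18.3%. The covered share of single outermost steps ranged between 1.69% and 52.6% in replicate 1 and between 1.82% and 57.0% in replicate 2. Without the outermost 250 kb the ratio was 1.17, higher on 18 of 24 chromosomes, and the exact sign test no longer passed (adjusted p = 0.0566).

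Within the ends, the 5 steps of 250 kb with the most peaks were on 3 chromosomes. Chromosome 24 had 88 peaks in replicate 1 and 77 in replicate 2 between 1500001 and 1750000, and 78 and 77 between 1750001 and 2000000. Chromosome 10 had 77 and 72 between 1000001 and 1250000, and 73 and 74 between 750001 and 1000000. Chromosome 17 had 74 and 70 between 53481469 and 53731468, in the second step from its right end. Of these 5, the chromosome 17 step alone lay in the outer 750 kb. The median step had 29.5 peaks in replicate 1 and 28 in replicate 2, over 384 steps. Only 1 step, on chromosome 1 between 58346580 and 58596579, had no peak in either list. It lay in the longest stretch without a peak at an end, 58341502 to 58680349 (338.8 kb). The next were at 58961970 to 59191110 on the same chromosome (229.1 kb), on chromosome 7 at 1796035 to 2021740 (225.7 kb), on chromosome 15 at 811847 to 1034093 (222.2 kb) and on chromosome 3 at 1210275 to 1370275 (160 kb). None of the 5 touched the outermost 250 kb. Stretches over 50 kb without a peak numbered 112 at the ends, or 116.7 per 100 Mb, and 1784 in the inner part, or 148.8 per 100 Mb.

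Scores over the whole 2 Mb did not pass the test against the inner part. The median score was 106.2 at the ends and 103.4 in the inner part in replicate 1, and 112.9 at the ends and 107.7 in the inner part in replicate 2. The ratio of median scores was above 1 on 13 of 24 chromosomes, with a median of 1.01 (exact sign test, adjusted p = 0.839). Close to the ends the values were higher: the outermost 250 kb had median scores of 112.3 and 124.6. The step from 1500 to 1750 kb had the lowest of the 8 steps, 98.96 and 103.6. In the step from 1750 to 2000 kb they were 106.3 and 114.4. With ends of 1 Mb the score ratio was 1.08 and passed the exact sign test (18 of 24 chromosomes, adjusted p = 0.0283), and with ends of 3 Mb it was 1.01 and did not (14 of 24, exact test, adjusted p = 0.677). Of the end peaks 10.6% stood in the top 10% of their list by score in replicate 1 and 11.3% in replicate 2, against 9.88% and 9.87% of the inner peaks. Among peaks of like width, median scores were lower at the ends in the upper 3 of 4 width quartiles of both lists, while in the lowest they were 75.8 and 80.01 at the ends and 76.5 and 78.3 in the inner part. In the third quartile of width the median was 107.6 at the ends and 114.7 in the inner part in replicate 1, and 111.8 at the ends and 120.5 in the inner part in replicate 2.

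Sharing between the captures was close to that of the inner part. A peak counted as shared if 1 bp or more of it lay in a peak of the other capture. In replicate 1, 79.8% of the end peaks (95% Wilson interval 79.1 to 80.5%) and 78.9% of the inner peaks were shared. In replicate 2, 79.1% of the end peaks (78.4 to 79.8%) and 77.3% of the inner peaks were. The intervals cover counting error only and treat peaks as independent. Per chromosome the difference, ends minus inner, had a median of 1.23 percentage points and was above 0 on 15 of 24 chromosomes (exact sign test, adjusted p = 0.384). In the outermost 250 kb, 85.4% of replicate 1 peaks (83.6 to 87.0%) and 81.7% of replicate 2 peaks (79.8 to 83.5%) were shared. Between 1500 and 1750 kb the shares were 73.7% and 74.0%, the lowest of the 8 steps. Between 1750 and 2000 kb they were 79.6% in both captures, so the shares did not fall steadily up to 2 Mb. Of the 8 steps, the outermost also had the widest and densest peaks, and the part of this in the share was not tested. When an overlap of 50% of both peaks was asked for, the difference turned round to -1.35 percentage points. It was then above 0 on 7 of 24 chromosomes (exact sign test, adjusted p = 0.0799).

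**Figure D5:**
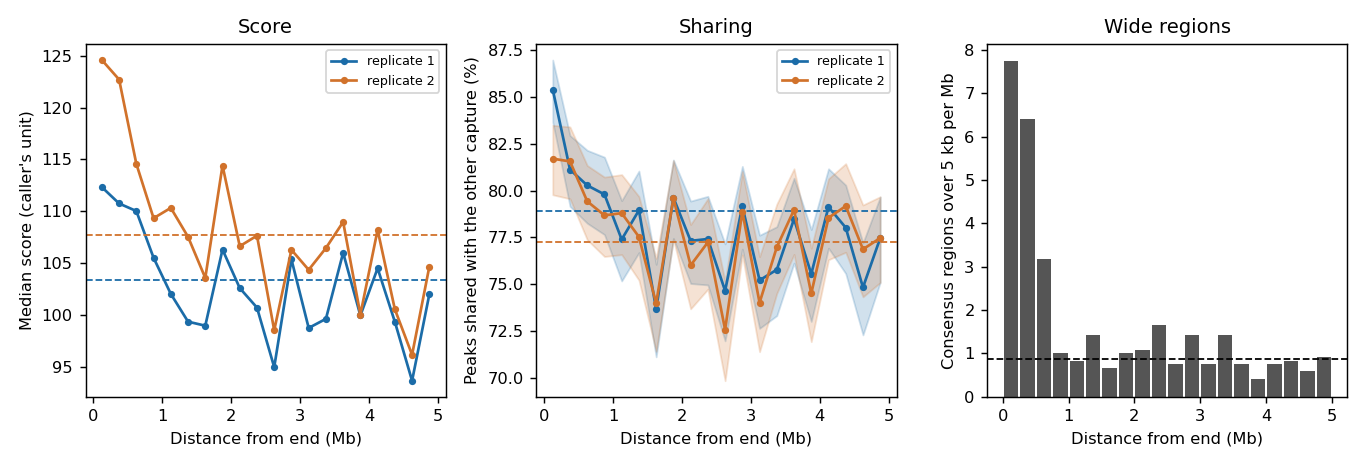
By distance from the chromosome end in 250 kb steps: median score in the caller's own unit (left), percent of peaks shared with the other capture with 95% Wilson intervals as bands (middle), and consensus regions wider than 5 kb per Mb (right). Dashed lines give the inner part. Wide regions reach 7.75 per Mb in the outermost step against 0.873 in the inner part. With all ends pooled, scores and sharing are highest in that step as well in both captures. In replicate 2 sharing is nearly equal in the next step, 81.7% against 81.6%.

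The captures differed from each other in small ways at the ends. Replicate 1 had more peaks than replicate 2 at 32 of 48 ends and fewer at 16, and the number in replicate 2 was 0.883 to 1.2 times that in replicate 1. Over all ends replicate 1 had 11912 peaks and replicate 2 had 11650, while in the inner part they had 129075 and 129659. A like count over inner tiles is not given here. Over 8235 pairs of peaks at the ends that overlapped only each other, the replicate 2 score was a median of 1.06 times the replicate 1 score (quartiles 0.778 and 1.45), and over 92908 inner pairs it was 1.04 times. Spearman's rho of the paired scores was 0.652 at the ends and 0.653 in the inner part, and that of the paired widths was 0.826 at the ends and 0.813 in the inner part. The paired width in replicate 2 was 1.05 times that in replicate 1 at the ends and 1.03 times in the inner part. In the outermost 250 kb the score and width ratios of replicate 2 over replicate 1 were 1.102 and 1.065.

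The strongest consensus regions at the ends, by the mean of their score ranks in the captures, were chosen by those scores, which are given as a description. First was chromosome 16, 114256 to 126243, an 11988 bp region 120.2 kb from the left end that scored 1736 in replicate 1 and 1932 in replicate 2. Its neighbour at 105424 to 110536 scored 1405 and 1738. On the right end of chromosome 17, 3 regions lay between 53349739 and 53457602: 53349739 to 53355987 (1910 and 1092), 53356256 to 53361361 (1024 and 1332) and 53451744 to 53457602 (1786 and 1083). The others were chromosome 21, 43161752 to 43168448 (1277 and 1882), chromosome 8, 54455181 to 54458629 (1303 and 1571), chromosome 14, 443988 to 450305 (1168 and 1352), chromosome 15, 93456 to 97641 (1275 and 1161) and chromosome 25, 725863 to 732012 (1256 and 1107). The chromosome 25 region and the 3 of chromosome 17 held 2 peaks in at least 1 capture, where 1 score is given for both. Of these 10, 3 lay in the outermost 250 kb and 8 in the outer 750 kb. Of all 8919 consensus regions at the ends, the 3 steps of the outer 750 kb held 1320, 1233 and 1217, from the outermost inwards. By mean rank over all 106844 consensus regions of the 24 chromosomes, the first stood at place 34 and the last at place 199. All regions ranked above place 34 were thus in the inner parts, which held 97925 of the 106844 regions.

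Strong peaks without a partner were few at the ends and in the inner part alike. Of the end peaks in the top 10% of their list, 3 of 1268 in replicate 1 (0.237%) and 2 of 1314 in replicate 2 (0.152%) were unshared, against 19 of 12747 (0.149%) and 8 of 12799 (0.0625%) of the inner peaks. In replicate 1 the highest unshared scores were 345.5 on chromosome 3 (63106931 to 63110866), 334.1 on chromosome 14 (53212702 to 53218202) and 311 on chromosome 18 (47958516 to 47959981). In replicate 2 they were 332.4 on chromosome 11 (49332 to 52366), 321.7 on chromosome 8 (55002438 to 55004637) and 278.3 on chromosome 13 (52126498 to 52129833). The chromosome 13 peak was outside the top 10% of its list, which began above 303.2. All 6 had a peak of the other list 169 to 646 bp away, so the other capture had a call next to each of them. Those neighbouring calls scored between 50.02 and 253.6, each lower than the unshared peak beside it. How often other peaks have a call this near is not given here.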

How the data were processed

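The authors trimmed adapters and aligned reads with BWA, per the labels' protocols, and danRer7 is the build in the submitters' processing notes. Each peak is named after MACS, but the sources used here do not give its version, settings or control. A deposited peak has a start, an end and the authors' score, never below 50. Depth per peak is unknown; about 30M reads per library is the figure in the labels' protocols. Values of the input libraries were not analysed here.

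Ends, steps, tiles, overlaps and consensus regions were computed with pandas 2.3.3, numpy 2.4.6 and scipy 1.17.1 under Python 3.11.15, and figures drawn with matplotlib 3.10.9. Each chromosome's ends were set against its own inner part, as log2 ratios averaged over the captures or, for sharing, as a difference in percentage points. Exact two-sided sign tests ran over 24 chromosomes with Benjamini-Hochberg adjustment over 5 measures. Tiles of the inner part were compared with the rest of that inner part for density and with the whole of it for width. The functions for density and sharing were tested on simulated data with known values, and those for overlap, merging and distance on hand-made peaks. Known effects on width, score or covered bases were not simulated. The region set and measures were chosen with earlier results of these data known. Named ends, steps, regions, unshared peaks and gaps were those highest or lowest by fixed rules; ends named for width, the 750 kb limit, and the width comparisons among like scores, by sharing and against tiles, with their cutoffs, were chosen after the values had been seen; the outermost step was first read at a cutoff of 25% above the inner median, and the cutoff of 1.2 times was added later. Alternatives covered end length, score threshold, merging, the side, the overlap asked for and each capture alone.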

Additional observations from a re-analysis of the deposited data

How the results depend on the processing

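Of 70 alternative values, 56 kept their direction and their side of the threshold of 0.05 (counts: within 1.5 times). The width ratio did so under all 14 of its alternatives, between 1.08 and 1.251. Alternatives with ends of 750 kb, with shared or unshared peaks alone, and for width within score quartiles were added after seeing the data. Leaving out the outermost 250 kb took the covered-base ratio to 1.17, past the threshold no longer. With ends of 1 Mb the density ratio was 1.26 and the score ratio 1.08, both past the threshold. With ends of 750 kb they were 1.32 and 1.07 and sharing differed by 3.85 percentage points, all past the threshold. The 750 kb limit was chosen after the values of these same lists had been seen, so its tests add no separate evidence. With ends of 3 Mb sharing differed by -0.20 points, and with 50% overlap of both peaks by -1.35. Right ends alone gave a score ratio of 0.998. With each replicate left out in turn, the density ratio lay between 1.1125 and 1.1145, past the threshold only without replicate 2, and the score ratio was 0.999 to 1.02. The number of ends above 1.5 times their inner density was 8 as reported, 4 with ends of 3 Mb and 4 with merged peaks. It was 12 with ends of 1 Mb, 11 with ends of 750 kb and 11 with only peaks above the median score of their list. Left ends alone had 7 and right ends alone 1. These are parts of the reported 8, though both were counted among the 70 alternatives. With either replicate left out the number was 8. For these the cause was not tested. No paired analysis was possible because only the captures had peak lists; inputs 1 and 2 were not analysed here. Without read depth, absence of a peak does not show absence of 5hmC, and right ends stop at the last peak.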
